A study of Mus musculus with 19 samples.

Results

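Connexin and pannexin genes encode the subunits of gap junction channels and of related large-pore membrane channels. The 9 genes Gja1, Gjb6, Gjb2, Gja4, Gja5, Gjc1, Gjc3, Panx1 and Panx2 were taken by their symbols from the 60567 genes listed in the deposited table, and each symbol stood on 1 entry. The rule used no measured value.

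Connexins assemble in rings called hemichannels, and hemichannels of neighbouring cells dock to form gap junctions that pass ions, metabolites and second messengers. Astrocytes are coupled into networks mainly by connexin 43 (Gja1) and connexin 30 (Gjb6), which also meet at the endfeet around blood vessels, while connexin 37 (Gja4) and connexin 40 (Gja5) are known from endothelial cells, connexin 45 (Gjc1) from the muscle cells and pericytes of vessel walls, and connexin 29 (Gjc3) from the oligodendrocyte lineage. Pannexins do not usually form gap junctions and are known as single-membrane channels that release ATP.

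RNAseq was performed on cells sorted from the hippocampus of 9 month-old male mice on a C57bl6 background. APP mice were APP/PS1dE9 transgenics, a model of Alzheimer's disease whose transgenes include a chimeric mouse and human App gene with the Swedish mutations, and WT mice were their non-transgenic littermates. All mice, controls included, had received in the CA1 region an adeno-associated virus whose gfaABC1D promoter, derived from the GFAP promoter, drives expression in astrocytes. The virus encoded GFP alone in WT-GFP and APP-GFP mice, or GFP with SOCS3, an inhibitor of the JAK2-STAT3 pathway, in APP-SOCS3 mice at the same total viral load. After papain dissociation and removal of myelin with beads, GFP+ astrocytes gave 7 samples for WT-GFP, 4 for APP-GFP and 5 for APP-SOCS3 mice. The GFP- fraction was sequenced for WT-GFP mice alone (3 samples) and is a mixture that includes microglia, oligodendrocyte precursors, neurons and non-infected astrocytes. Each astrocyte group had as many samples as the mice given for it, though both hippocampi of a mouse were sorted separately. The sources used here do not say from which WT-GFP mice the GFP- samples came, and p values measure the spread between samples.

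Samples held 19331876 to 32621917 gene reads each. Values are normalized mRNA levels, in which 1 read was worth 0.756 to 1.18 units. Because cDNA was amplified by PCR from little RNA, reads are not independent molecules, and limits set by read counts cover counting error only. Between 15575 and 26757 genes were detected in GFP+ samples and 30807 to 31897 in GFP- samples. WT-GFP replicate 3 and APP-GFP replicate 2 had the fewest, with 15575 and 16471. Of 15 astrocyte markers, 15 were higher in the GFP+ fraction of WT-GFP mice, and they summed to 1027349 to 1327764 against 49498 to 128520. Microglial markers were present at low sums in the sorted astrocytes of WT-GFP mice (12030 to 45242, with 130916 to 222909 in GFP- cells), and so were endothelial markers apart from Slco1c1 (5521 to 55139, with 174290 to 274993). Slco1c1, left out of the sum of the other 17 after its values were seen, had a mean of 28577 in WT-GFP astrocytes and 31731 in GFP- cells, with overlapping ranges. Socs3, the transferred gene, was at 13296 to 37750 in the APP-SOCS3 samples, above every APP-GFP (438 to 1639) and WT-GFP astrocyte sample (458 to 1208), as the labels have it. It was also high in GFP- cells, at 10320 to 17689.

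Gja1 lies on chromosome 10 (mm10, bases 56377273 to 56402513, plus strand). Gjb2 (bases 57098602 to 57104703) and Gjb6 (57123301 to 57133611) are neighbours on the minus strand of chromosome 14, 18597 bases apart. Gja4 lies on chromosome 4 (127311420 to 127314042, minus strand). The 300-base promoter windows of these 4 genes, 250 bases before to 50 after the transcription start, are shown because Gja1 and Gjb6 were both higher in GFP+ astrocytes, Gjb2, the neighbour of Gjb6, was not, and Gja4 was lower there. They are RefSeq sequences of GRCm38.p6, the same genome assembly as mm10, written from 5′ to 3′ on the strand of the gene at chr10:56377050-56377349 (plus), chr14:57133562-57133861 (minus), chr14:57104653-57104952 (minus) and chr4:127313990-127314289 (minus). Capitals mark AP-1 elements (TGANTCA) and GC boxes (GGGCGG on either strand).
Gja1: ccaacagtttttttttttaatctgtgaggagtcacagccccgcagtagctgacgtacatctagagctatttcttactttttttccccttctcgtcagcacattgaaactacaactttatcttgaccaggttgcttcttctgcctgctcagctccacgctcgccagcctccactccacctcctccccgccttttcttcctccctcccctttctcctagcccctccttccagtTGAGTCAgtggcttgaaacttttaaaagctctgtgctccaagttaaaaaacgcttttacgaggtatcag
Gjb6: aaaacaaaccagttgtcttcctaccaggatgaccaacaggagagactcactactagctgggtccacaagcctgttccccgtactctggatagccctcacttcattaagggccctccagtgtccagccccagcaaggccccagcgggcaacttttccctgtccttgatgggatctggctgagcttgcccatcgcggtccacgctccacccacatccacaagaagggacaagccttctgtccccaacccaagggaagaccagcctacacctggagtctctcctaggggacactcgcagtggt
Gjb2: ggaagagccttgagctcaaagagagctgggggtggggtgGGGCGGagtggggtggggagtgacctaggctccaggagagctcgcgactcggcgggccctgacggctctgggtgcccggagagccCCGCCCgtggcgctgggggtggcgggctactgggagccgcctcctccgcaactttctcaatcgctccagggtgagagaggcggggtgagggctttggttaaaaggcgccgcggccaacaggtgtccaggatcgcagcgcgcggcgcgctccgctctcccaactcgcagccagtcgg
Gja4: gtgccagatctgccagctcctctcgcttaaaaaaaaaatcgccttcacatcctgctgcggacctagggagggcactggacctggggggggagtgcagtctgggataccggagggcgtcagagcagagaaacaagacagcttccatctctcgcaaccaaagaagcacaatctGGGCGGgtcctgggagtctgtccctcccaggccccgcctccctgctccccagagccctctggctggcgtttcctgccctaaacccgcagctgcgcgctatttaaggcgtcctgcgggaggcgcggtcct
In the Gja1 window, an AP-1 element began 19 bases before the start. The Gjb2 window held GC boxes that began 211 and 126 bases before the start, and the Gja4 window held 1 that began 79 bases before it. The Gjb6 window held none of these letters. AP-1 elements were in 7.81% and GC boxes in 35.7% of the 32851 promoter windows of this length. The STAT element TTCNNNGAA, present in 8.30% of all windows, and the TATA box TATAAA on either strand, present in 13.6%, were in none of the 7 windows found for the 9 genes. GC content was 47.7% for Gja1, 57.3% for Gjb6, 70% for Gjb2 and 62% for Gja4, with a median of 52.7% over all windows. Between transcripts of any pair of the 9 genes, the longest identical stretch was 28 bases, shorter than the 100-base reads.

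The comparison of GFP+ with GFP- cells of WT-GFP mice asks in which sorted cells the mRNA of each channel gene was found. Gja1 and Gjb6 were higher in GFP+ astrocytes, 13.8 and 12.9 times by the ratio of means. Gja4, Gja5, Gjc1, Gjc3, Panx1 and Panx2 were lower, by ratios from 4.82 to 22.9 for the 5 of them with reads in WT-GFP astrocytes, and Gjb2 was not called. Single samples moved several of these ratios by more than 1.5 times. Without GFP- replicate 1 that of Gjb6 was 21.3, and without WT-GFP replicate 2 those of Gja4, Gjc1 and Panx1 were 14.5, 16.9 and 8.98. Without WT-GFP replicate 3 the ratio of Gjc3 was 68.4, and without WT-GFP replicate 4 that of Panx2 was 25.3. In all, 8 of the 9 genes were called (limma on log2(level + 1), p up to 0.05 and a difference of 1.5-fold or more), against 42.8% of the 26709 genes tested. The 2 higher genes compare with 9.25% of all genes called higher and the 6 lower genes with 33.5% called lower. For these 8 genes the ranges of the sorted fractions were separate, as for 34.8% of all genes. The median log2 fold change over the 9 genes was -4.51, or -4.37 with Gja5 at its bound, and -1.31 over all genes tested. In bulk samples, fewer cells of a type and less RNA per cell cannot be told apart.

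**Figure D1:**
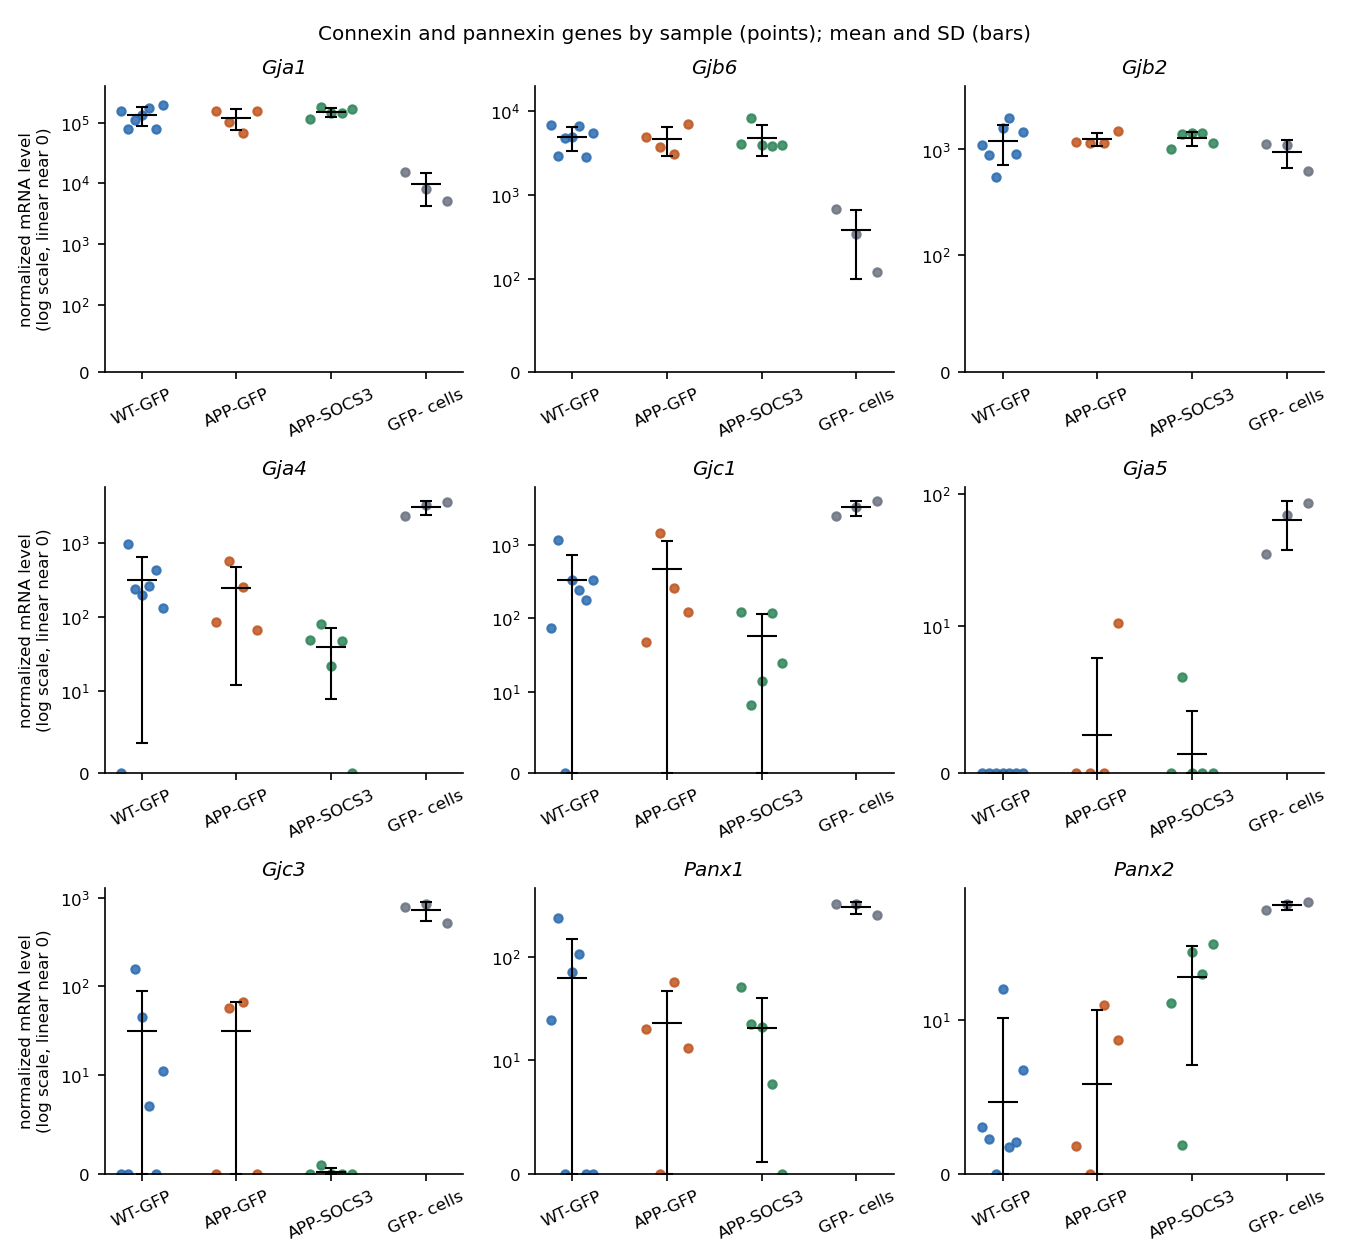
Normalized mRNA levels (y axis, logarithmic and linear near 0) of the 9 genes in each sample of the 3 astrocyte groups and of GFP- cells. Points are samples and bars the mean and SD, with the lower SD bar stopped at 0; Gja1 and Gjb6 of GFP- cells lie below all GFP+ samples, and Gjb2 lies at like levels in the 4 groups.

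Gja1 encodes connexin 43, the main connexin of astrocytes. In WT-GFP astrocytes its levels ran from 77998 to 196236 with a median of 130790, and in the 3 samples of GFP- cells they were 15331, 8167 and 5103. The lowest astrocyte sample was thus above the highest GFP- sample. The difference was 3.86 ± 0.37 on the log2 scale (SE) with an adjusted p of 1.9e-05 (limma, Benjamini-Hochberg over all genes tested), and the exact permutation test gave p = 0.0167, the smallest it can give with 7 and 3 samples.

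Gjb6 encodes connexin 30. Its levels were 2877 to 6875 with a median of 4894 in WT-GFP astrocytes and 685, 343 and 122 in GFP- cells. Again every astrocyte sample was above every GFP- sample. The log2 difference was 3.94 ± 0.47 (SE, adjusted p = 0.0001 with limma), beside a median of 3.83 over the 15 astrocyte markers. In GFP- cells, Gja1 and Gjb6 were highest in replicate 1 and lowest in replicate 3, the same order as the summed astrocyte markers (128520, 77996 and 49498).

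Gjb2 encodes connexin 26, the closest connexin of the glial set to Gjb6 on the chromosome. Its levels were 544 to 1988 with a median of 1096 in WT-GFP astrocytes and 1131, 1093 and 628 in GFP- cells, so the groups overlapped. The log2 difference was 0.28 (95% interval -0.57 to 1.13, adjusted p = 0.59 with limma), and it was -0.18 with samples scaled to equal upper quartiles. The interval excludes a difference as large as that of Gjb6. Within a sample, Gjb2 had 25.3% ± 8.32 (SD, n = 7) of the level of Gjb6 in WT-GFP astrocytes. In the GFP- fraction it had 333% ± 175 (SD, n = 3). The ratio was at most 32.6% in WT-GFP astrocytes and at least 165% in GFP- cells.

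**Figure D2:**
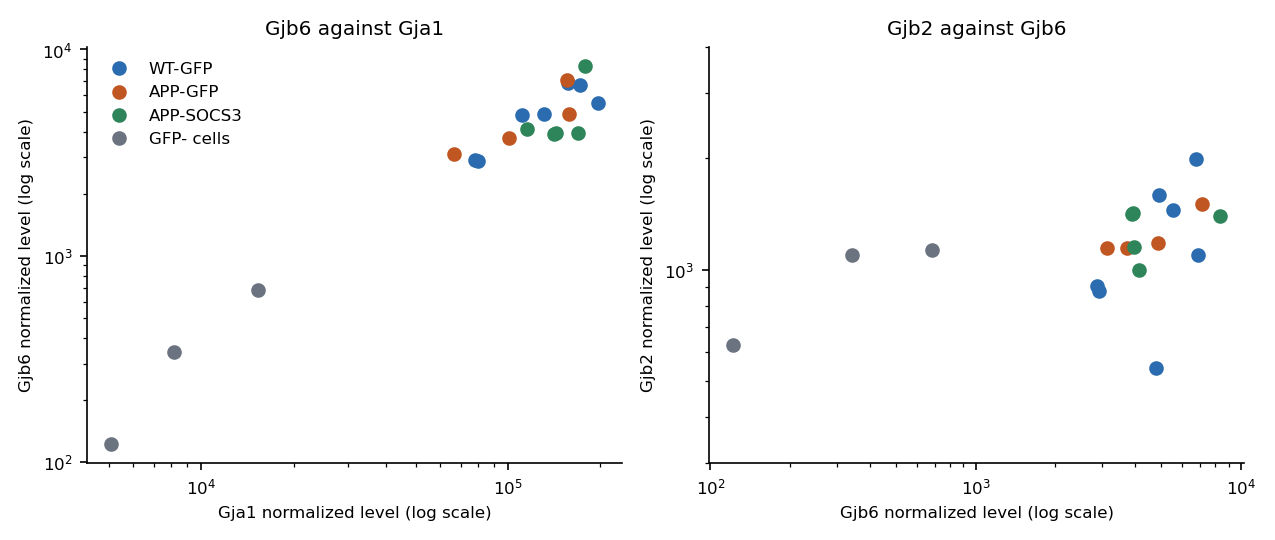
Normalized levels of Gjb6 against Gja1 (left) and of Gjb2 against Gjb6 (right) on logarithmic axes, with 1 point per sample coloured by group. On the left, GFP- cells lie low on both axes; on the right, they lie low in Gjb6 while Gjb2 stays between 628 and 1131.

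Connexins known from vessel walls were lower in GFP+ astrocytes. Gja4 levels were 0 to 981 with a median of 240 in WT-GFP astrocytes and 2343, 3302 and 3665 in GFP- cells. The highest astrocyte sample, replicate 2, stood well under the lowest GFP- sample, and replicate 1 was at 0 reads. Gja4 differed by -4.51 ± 1.68 on the log2 scale (SE, adjusted p = 0.0619 with limma), with a ratio of means of 9.6.

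Gja5 had no read in any of the 7 WT-GFP samples, where a count of 0 allows up to 3 reads per sample, and levels of 34.8, 68.8 and 84.9 in GFP- cells. It was at least 20.7-fold lower in WT-GFP astrocytes, taken against 3 reads per sample (adjusted p 7.27e-06 with limma). Since the strandedness of the counting is not stated, reads of Gja5 cannot be told apart with certainty from those of genes that overlap it.

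Gjc1 levels were 0 to 1165 with a median of 241 in WT-GFP astrocytes and 2471, 3255 and 4027 in GFP- cells. The sample at 0 was replicate 3 and the highest replicate 2. Gjc1 differed by -4.70 ± 1.70 on the log2 scale (SE, adjusted p = 0.0557 with limma), with a ratio of means of 9.81. In GFP- cells Gja4 and Gjc1 were lowest in replicate 1 and highest in replicate 3, and so were the summed endothelial markers other than Slco1c1 (174290, 227773 and 274993) and mural markers (137310, 172829 and 180491). Summed microglial markers had this order too (130916, 169947 and 222909). Arterial endothelial (37034, 22302 and 21858) and fibroblast markers (32152, 14403 and 10842) had the opposite order. In this comparison 17 of 18 endothelial and 12 of 12 mural markers were also lower in GFP+ astrocytes, beside 33.5% of all genes called lower. The part of these markers in the result was not tested.

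Gjc3 was the least detected of the connexins with reads in WT-GFP astrocytes. Its levels were 0 in 3 of the 7 samples and 6.92 to 158 in the others, against 793, 854 and 522 in GFP- cells. Gjc3 differed by -6.69 ± 1.65 on the log2 scale (SE, adjusted p = 0.0107 with limma). Of the oligodendrocyte precursor markers, 8 of 9 were also lower in GFP+ astrocytes and 1 was higher, while of 9 oligodendrocyte markers tested 3 were lower and 2 higher. Over all genes 33.5% were called lower and 9.25% higher. In GFP- cells the precursor markers summed to 72905, 88866 and 44603, highest and lowest in the same samples as Gjc3. This sum did not separate the fractions, since it was 55769 to 80422 in WT-GFP astrocytes. The mean log2 level of the same markers did separate them. For GFP- cells this mean ran from 11.6 to 12.7, above every WT-GFP astrocyte sample (5.25 to 9.29). Its order over the GFP- samples was also that of Gjc3. The overlap of the sums thus does not stand for most markers of the list.

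Panx1, the widely expressed pannexin, was at 0 in 3 of the 7 WT-GFP samples and at 24.3 to 238 in the others. GFP- cells had 330, 327 and 256, all above the highest astrocyte sample. The log2 difference was -4.60 ± 1.92 (SE, adjusted p = 0.0899 with limma), and the ratio of means was 4.82. Panx2, the pannexin best known from brain, was at 0 to 16.7 in WT-GFP astrocytes, where 4 of 7 samples had at most 3 reads, and at 62.1, 68.1 and 70.7 in GFP- cells. Its log2 difference was -4.10 ± 0.92 (SE, adjusted p = 0.0067 with limma).

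With an adjusted p under 0.05 in place of the unadjusted one, 5 of the 9 genes were called (Gja1, Gjb6, Gja5, Gjc3 and Panx2), against 31.7% of all genes. Gja4, Gjc1 and Panx1 were lost in the same way without GFP- replicate 2 or without GFP- replicate 3 (5 genes called each).

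Set per kilobase of exon, so that genes can be compared with each other, Gja1 was the most abundant of the 9 genes in each of the 16 GFP+ samples. In WT-GFP astrocytes the mean levels per kilobase were 35219 for Gja1, 2255 for Gjb6, 502 for Gjb2, 192 for Gja4, 122 for Gjc1, 10.9 for Panx1, 7.90 for Gjc3, 1.29 for Panx2 and 0 for Gja5. The ranges of Gja1, Gjb6 and Gjb2 did not overlap, whereas each later neighbour in this order overlapped the one before it. Gja1 made up 91.6% ± 1.68 (SD, n = 7) of the summed level per kilobase of the 9 genes, Gjb6 5.93% ± 0.80 and Gjb2 1.34% ± 0.40. The order in GFP- cells was another one. There Gja1 had 38.1% ± 15.4 (SD, n = 3), Gja4 29.8% ± 10.4, Gjc1 19.4% ± 7.26, Gjb2 6.10% ± 1.30, Gjc3 2.81% ± 0.55 and Gjb6 2.56% ± 1.59, and Gja1 was above Gja4 in 2 of the 3 samples only. The lengths are the joined exons of GENCODE M21 protein-coding transcripts and not the constitutive regions on which the authors counted, which were not used here.

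**Figure D3:**
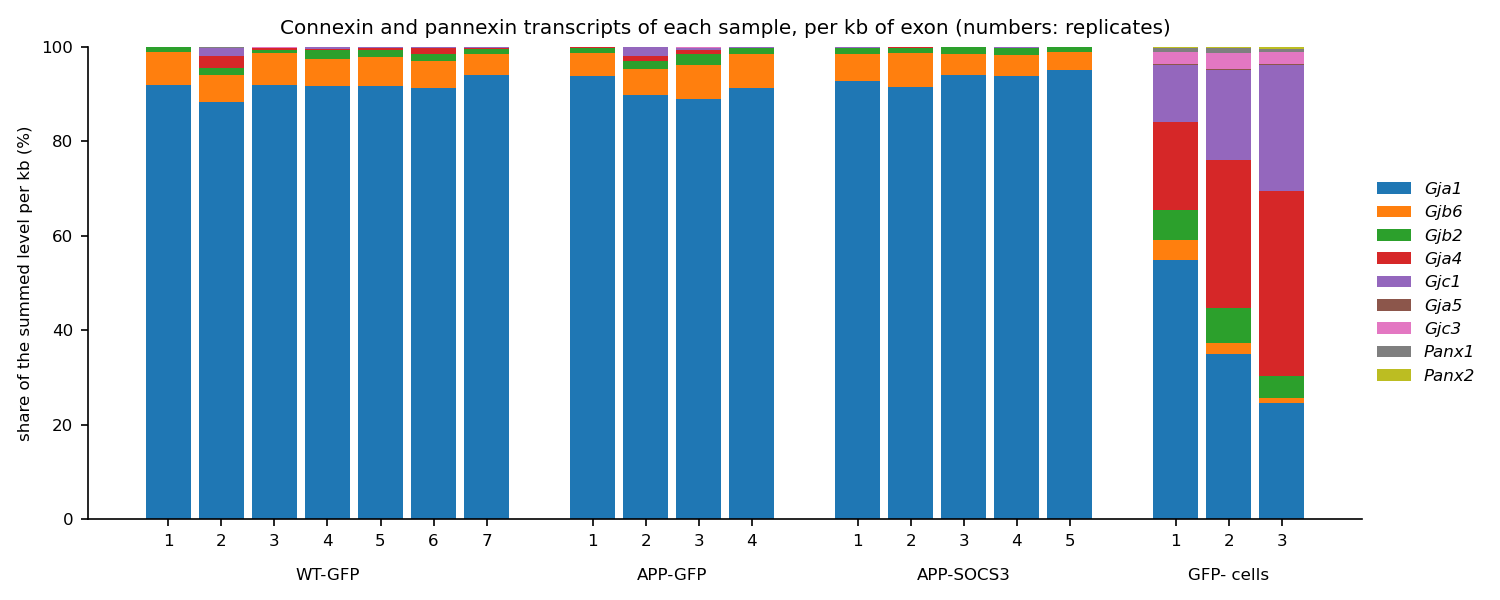
Share of each gene (y axis, percent) in the summed level per kilobase of exon of the 9 genes, with 1 bar per sample and the replicate number under it. Gja1 fills 88.3% to 95.1% of the bar in GFP+ samples and 24.6% to 54.9% in GFP- cells, where Gja4 and Gjc1 take most of the rest.

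Other genes of these families were scarce. Of 14 further connexin and pannexin genes, none reached a mean level of 100 in any group, and Gjb5, Gjd4, Gje1 and Panx3 were among those with no read in any sample. In WT-GFP mice 4 of the 14 could be tested. Beside 33.5% of all genes called lower, 2 of these were lower in GFP+ astrocytes. One of them was Gjb1 (connexin 32, known from oligodendrocytes), with a mean level of 5.78 against 38.6 in GFP- cells (adjusted p = 0.0288 with limma).

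Of 22 genes for proteins that bind or regulate connexins, 3 were higher and 7 lower in GFP+ astrocytes than in GFP- cells, beside 9.25% and 33.5% of all genes, and their median log2 fold change was -0.62, beside -1.31 over all genes. Hepacam, an adhesion protein of astrocytes that helps to place connexin 43 at cell contacts, had a mean level of 12387 against 1238 in GFP- cells. Cav1 (caveolin) had 1334 against 19387, Ctnnb1 (beta-catenin) 1152 against 5625 and the kinase gene Mapk3 1290 against 3064. Of 11 other large-pore channel and pannexin partner genes that could be tested, 8 were lower and none higher, with the same shares of all genes beside them. Among these were Slco2a1, Lrrc8c (a subunit of volume-regulated anion channels), Fam26f and Calhm2, with log2 fold changes of -5.90, -1.77, -4.67 and -5.89. The groups did not overlap for 10 of the 22 genes of the first list and 10 of the 11 of the second, beside 34.8% of all genes.

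The comparison of APP-GFP with WT-GFP astrocytes asks how the genes differ in APP mice. None of the 7 genes tested was called, against 2.23% of the 22969 genes tested, and Gja5 and Panx2 were too low to be tested. Gja1 levels were 157685, 100878, 66467 and 155847 in APP-GFP astrocytes, within or just under the WT-GFP range. Gjb6 levels were 4878, 3712, 3118 and 7106, the last just above that range, and Gjb2 levels 1182, 1149, 1148 and 1507. Each of these 3 connexins overlapped widely between the groups. The log2 differences were -0.14 (95% interval -0.78 to 0.50) for Gja1, -0.07 (-0.70 to 0.56) for Gjb6 and 0.15 (-0.54 to 0.84) for Gjb2. All adjusted p values of the 7 genes were 0.999 (limma), and none had an unadjusted p under 0.05.

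The low connexins varied more. Gja4 levels in APP-GFP astrocytes were 86.9, 573, 259 and 66.3, and Gjc1 levels 47.1, 1469, 258 and 120. Replicate 2 was the highest for both genes. The intervals of their log2 differences were -2.86 to 3.6 and -2.58 to 4.24, so that differences of several fold were not detectable. Gjc3 was at 0 in 2 of the 4 samples and at 57.9 and 67.3 in the others. Panx1 had 19.9, 0, 57.4 and 13.1, and Panx2 1.81, 0, 12.9 and 8.72, within or close to the range of WT-GFP astrocytes. Gja5 was detected in replicate 4 with a level of 10.5 and was at 0 reads elsewhere. None of the genes tested on the 3 family lists was called in this comparison (limma, lowest unadjusted p 0.454, 0.0526 and 0.0721). Of 15 microglial markers 2 were called higher, beside 2.23% of all genes called in either direction, and all 15 had a positive log2 difference. No marker of the other cell types was called.

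**Figure D4:**
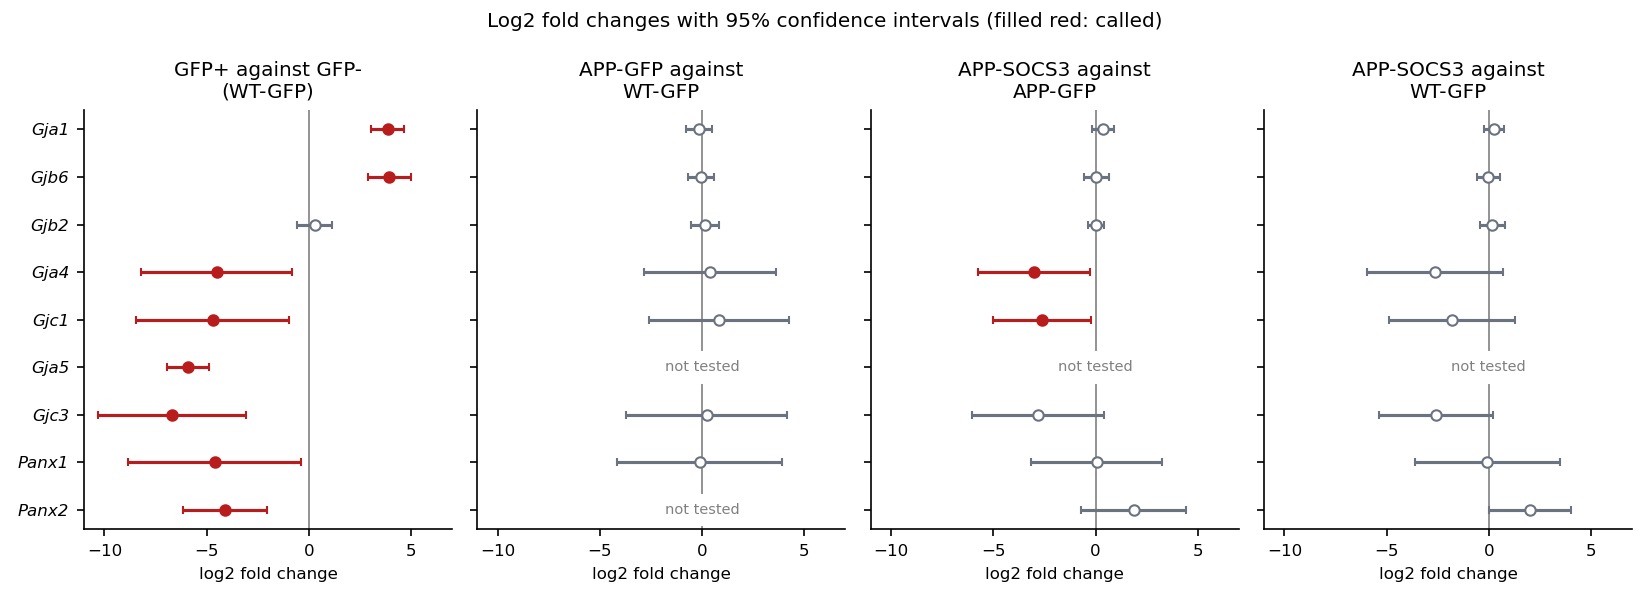
Log2 fold changes (x axis) of the 9 genes with 95% confidence intervals from limma in the 4 comparisons. Filled red points are called genes; 8 stand in the first comparison and 2 (Gja4 and Gjc1) in the comparison of APP-SOCS3 with APP-GFP astrocytes, and intervals of Gja1, Gjb6 and Gjb2 are the narrowest of the GFP+ comparisons.

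The comparison of APP-SOCS3 with APP-GFP astrocytes asks which genes differ when SOCS3 is expressed in APP mice. Gja4 and Gjc1, both known from vessel walls, were lower in APP-SOCS3 astrocytes, 2 of the 8 genes tested, against 5.7% of the 22844 genes tested called in either direction and 3.37% called lower. No gene of the 9 was higher. Gja1, Gjb6 and Gjb2 were not called. Neither Gja4 nor Gjc1 passed adjustment (adjusted p = 0.758 for both, limma), which 0.00438% of all genes did.

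Gja4 levels were 48.6, 81.9, 22, 47.1 and 0 in APP-SOCS3 astrocytes, where APP-GFP astrocytes had 66.3 to 573. The groups overlapped through APP-SOCS3 replicate 2 and APP-GFP replicate 4. The log2 difference was -3.01 ± 1.25 (SE, unadjusted p = 0.0342 with limma), and the exact permutation test gave p = 0.0317 with a smallest possible value of 0.0159. Gjc1 levels were 124, 8.37, 14, 118 and 24.6 in APP-SOCS3 astrocytes against 47.1 to 1469 in APP-GFP astrocytes. Here too the groups overlapped, and the exact permutation test gave p = 0.0952. The log2 difference of Gjc1 was -2.63 ± 1.09 (SE, unadjusted p = 0.0338 with limma).

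Markers of other cells moved with both genes. In APP-SOCS3 against APP-GFP astrocytes 15 of 17 endothelial, 5 of 12 mural and 15 of 15 microglial markers tested were called lower, beside 3.37% of all genes. So were 4 of 9 fibroblast, 4 of 13 neuronal, 3 of 9 oligodendrocyte precursor, 1 of 9 oligodendrocyte and 1 of 15 astrocyte markers, and no marker of these lists was called higher. Of 7 arterial endothelial markers 2 were called lower, while 4 had a positive log2 difference and the median of the list was 0.28. Summed levels were 1587 to 8901 against 7830 to 44814 for the 17 endothelial markers other than Slco1c1, which had means of 31674 and 24628, and 2666 to 4302 against 4515 to 22576 for mural markers. Of the endothelial list, Erg was at 0 in every APP-GFP sample. With the mean log2 level of endothelial markers as a covariate neither gene was called. The log2 differences became 0.77 for Gja4 and -0.44 for Gjc1. Over all genes, calls fell from 1301 to 571 with this covariate, so losing a call was not particular to these genes. The covariate itself was lower in APP-SOCS3 (4.76 to 8.30) than in APP-GFP samples (7.98 to 10.1), with some overlap. Neither Gja4 nor Gjc1 was called without APP-SOCS3 replicate 3, without APP-GFP replicate 2 or without APP-GFP replicate 3. Gja4 alone was called without APP-SOCS3 replicate 5, and Gja4 with Panx2 (higher, 2.49) without APP-SOCS3 replicate 2. The part of vascular cells in these differences was not tested further.

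Gja1 levels in APP-SOCS3 astrocytes were 115240, 178246, 142903, 141201 and 168453, and the log2 difference from APP-GFP astrocytes was 0.38 (95% interval -0.16 to 0.92). Gjb6 levels were 4114, 8324, 3917, 3895 and 3954, with a log2 difference of 0.04 (-0.58 to 0.66). All APP-SOCS3 samples but replicate 2 were thus between 3895 and 4114. Gjb2 levels were 1001, 1394, 1420, 1418 and 1150, with a log2 difference of 0.03 (-0.35 to 0.41). The interval of Gjb2 leaves out differences of 1.5-fold in either direction, and those of Gja1 and Gjb6 do not leave out a rise of that size.

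Gjc3 was at 0 in 4 of 5 APP-SOCS3 samples and at 1 read in the other, and 2 of the 4 APP-GFP samples were at 0 as well. It was not called by limma, but it was by edgeR and DESeq2 on whole reads, with log2 differences of -6.64 and -6.86. Panx1 levels were 50.8, 22.3, 21, 7.84 and 0, close to those of APP-GFP astrocytes. Panx2 levels were 13.2, 1.86, 31, 21.6 and 35.2 against 1.81, 0, 12.9 and 8.72, and the log2 difference was 1.86 (95% interval -0.69 to 4.42). Gja5 was detected in replicate 2 alone, with a level of 6.51.

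On the lists, none of the 22 connexin binding and regulating genes was called (limma, lowest unadjusted p 0.063). Of 10 other large-pore genes tested 3 were lower in APP-SOCS3 astrocytes, beside 3.37% of all genes called lower. They were Lrrc8a, the subunit that volume-regulated anion channels cannot do without (mean level 900 against 1600), Lrrc8d of the same channels (474 against 759) and Fam26e, of the CALHM channel family (4.95 against 121), with unadjusted p of 0.00242, 0.0126 and 0.00333 and adjusted p of 0.576 to 0.646 (limma). Levels of Lrrc8a were 779 to 1055 against 1102 to 2090, and those of Lrrc8d 323 to 629 against 667 to 851. These ranges were separate, but the share of all genes with separate ranges in this comparison is not given here.

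APP-SOCS3 astrocytes were also set against WT-GFP astrocytes, a comparison that shares its samples with the 3 others. None of the 8 genes tested was called, against 5.21% of the 22958 genes tested. The log2 differences were 0.24 (95% interval -0.24 to 0.72) for Gja1, -0.03 (-0.60 to 0.54) for Gjb6 and 0.18 (-0.43 to 0.79) for Gjb2. Panx2 came closest, with 2.02 (-0.00 to 4.04) and an unadjusted p of 0.0501 (adjusted p = 0.876, limma), and its exact permutation test gave p = 0.0404. WT-GFP levels of Panx2 stood at 0 to 16.7 and APP-SOCS3 levels at 1.86 to 35.2. Gja4 was at -2.64 (-5.95 to 0.67), Gjc1 at -1.80 (-4.87 to 1.26) and Gjc3 at -2.59 (-5.36 to 0.18).

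Here the count rested on single samples. Without APP-SOCS3 replicate 2, without WT-GFP replicate 4 or without WT-GFP replicate 7 only Panx2 was called. Without WT-GFP replicate 1 Gja4 and Gjc3 were called lower, without WT-GFP replicate 2 or WT-GFP replicate 6 Gjc3 alone, and without WT-GFP replicate 3 Gjc1 alone. In this comparison 12 of 18 endothelial, 5 of 12 mural and 11 of 15 microglial markers were called lower, beside 464 of the 22958 genes tested. On the lists, 1 of the 22 connexin binding and regulating genes and 1 of 9 other large-pore genes tested were called, beside 5.21% of all genes. Src, a kinase that phosphorylates connexin 43, was higher (mean level 617 against 332, log2 difference 0.93 ± 0.33 SE, adjusted p = 0.697 with limma), and so was Calhm2 (96.7 against 30, 4.02 ± 1.39 SE, adjusted p = 0.679).

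Among the 16 GFP+ samples, Gja1 and Gjb6 went together. Their log2 levels had a Pearson r of 0.784 (permutation p = 0.00033, adjusted over 10 pairs of genes 0.0033) and a Spearman rho of 0.774 (permutation p = 0.00073, adjusted 0.0073). Without the 2 samples farthest from the median of Gjb6, r was 0.787. Within the 7 WT-GFP samples r was 0.918. The other groups held fewer than 6 samples each. Relative to Gja1, WT-GFP astrocytes had 3.80% ± 0.52 of Gjb6 (SD, n = 7). The share was 4.01% ± 0.76 (SD, n = 4) with APP-GFP, 3.22% ± 0.93 (SD, n = 5) with APP-SOCS3 and 3.69% ± 1.13 (SD, n = 3) for the GFP- fraction. This ratio does not depend on the scaling of a sample. No difference passed the test in the 4 comparisons, with exact permutation p values of 0.733, 0.63, 0.159 and 0.157 in the order in which they were described, and adjusted values of 0.317 to 0.733. Without APP-SOCS3 replicate 2 the log2 ratio of APP-SOCS3 differed from that of WT-GFP astrocytes by -0.42 (exact permutation p = 0.0121). Gjb2 went less closely with Gja1 (r = 0.54 with a permutation p of 0.0301, adjusted 0.11; rho = 0.618 with a permutation p of 0.0123, adjusted 0.0412).

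The levels of some genes went with marker lists across the 16 GFP+ samples, often with several lists at once. Permutations ignored the groups, so differences between groups enter the p values. In 45 such relations (5 genes and 9 marker lists), Gja4 was most closely related to the mean log2 level of endothelial markers, with r = 0.89 and rho = 0.912 (permutation p = 1e-05 for both, the smallest these permutations can give, adjusted 0.00022). Without the 2 samples farthest from the median of the markers r was 0.827, and it was 0.933 within the 7 WT-GFP samples. Gja4 also went with microglial markers (r = 0.686, permutation p = 0.00351, adjusted 0.0197; rho = 0.824, permutation p = 0.00022, adjusted 0.00165). Without 2 samples that r was 0.72, and it was 0.686 within WT-GFP samples. With mural markers r was 0.673 (permutation p = 0.00318, adjusted 0.0197) and rho 0.714 (permutation p = 0.0027, adjusted 0.0152), but r was 0.476 without 2 samples and 0.419 within WT-GFP samples. With fibroblast markers r was 0.646 (permutation p = 0.00797, adjusted 0.0359) and rho 0.533 (permutation p = 0.0355, adjusted 0.114), with 0.423 and 0.403 in the same order. Gjc1 was most closely related to mural markers, with r = 0.834 (permutation p = 5e-05, adjusted 0.00075) and rho = 0.903 (permutation p = 1e-05, adjusted 0.00022). Without 2 samples r was 0.852, and it was 0.904 within WT-GFP samples. Gjc1 went with arterial endothelial markers too, with r = 0.762 (permutation p = 0.00043, adjusted 0.00484) and rho = 0.818 (permutation p = 0.00021, adjusted 0.00165), r without 2 samples 0.74 and r within WT-GFP samples 0.91. By rank it also went with endothelial markers (rho = 0.812, permutation p = 0.0002, adjusted 0.00165) and fibroblast markers (rho = 0.726, permutation p = 0.00214, adjusted 0.0138), for which r was 0.552 and 0.56 (permutation p = 0.0261 for both, adjusted 0.0905). Without 2 samples these r were 0.498 and 0.608, and within WT-GFP samples 0.366 and 0.771. Gjb6 was most closely related to astrocyte markers, with r = 0.878 (permutation p = 1e-05, adjusted 0.00022) and rho = 0.871 (permutation p = 2e-05, adjusted 0.0003). Without 2 samples r was 0.825, and it was 0.965 within WT-GFP samples. For Gja1 and astrocyte markers r was 0.723 (permutation p = 0.00148, adjusted 0.0111) and rho 0.703 (permutation p = 0.00333, adjusted 0.0167), r without 2 samples 0.642 and r within WT-GFP samples 0.948.

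**Figure D5:**
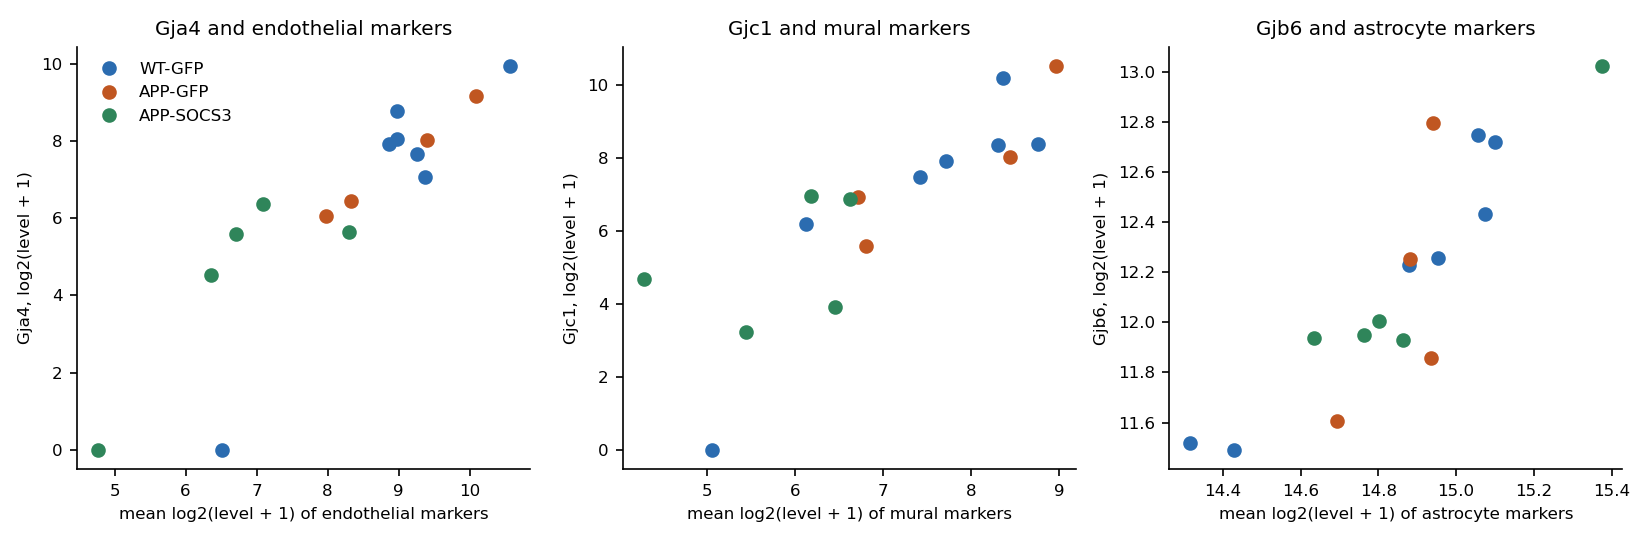
Levels of Gja4, Gjc1 and Gjb6 (y axes, log2(level + 1)) against the mean log2(level + 1) of endothelial, mural and astrocyte markers (x axes) in the 16 GFP+ samples, with 1 point per sample coloured by group. Points rise together in each panel (r = 0.89, 0.834 and 0.878), and the APP-SOCS3 samples lie low for Gja4 and Gjc1.

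Gjb2 did not follow astrocyte markers as closely (r = 0.45, permutation p = 0.0819, adjusted 0.23; rho = 0.568, permutation p = 0.0233, adjusted 0.0951). It went with neuronal markers, with r = 0.754 (permutation p = 0.00079, adjusted 0.00711) and rho = 0.644 (permutation p = 0.00828, adjusted 0.0373). Without 2 samples r was 0.536, and it was 0.911 within WT-GFP samples. Its relation to oligodendrocyte precursor markers had r = 0.623 (permutation p = 0.00715, adjusted 0.0358) and rho = 0.559 (permutation p = 0.0267, adjusted 0.0951), with r at 0.611 without 2 samples and 0.924 within WT-GFP samples. Summed neuronal markers were low, at 574 to 1828 over the GFP+ samples, and Gad2 was at 0 in all WT-GFP and APP-GFP samples. WT-GFP replicates 4, 5 and 7 had the most genes detected in their group (25514, 24643 and 24974). They also had the highest Gjb2 and the highest mean log2 levels of neuronal and precursor markers. WT-GFP replicate 3, with the fewest genes detected (15575), was lowest in each. The part of the number of genes detected in these relations was not tested.

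The genes most alike to each member over the 16 GFP+ samples, among the 10662 genes whose mean was 100 or more, were found by Pearson r of log2 levels, which is a description. For Gja1 they were Dag1 (r = 0.934), Tm9sf2 (0.927) and Vcam1 (0.925). For Gjb6 they were Mmd2 (0.959), Slc39a12 (0.95) and Hnrnpk (0.918), with Gja1 at rank 158. For Gjb2 they were Abtb2 (0.909), Abcb4 (0.901) and Rpn2 (0.89). Gja4 was most like Tek (0.956), Jag2 // Mir6941 (0.954) and Tie1 (0.949), of which Tek and Tie1 encode endothelial receptors and stand on the endothelial list. Gjc1 was most like Hist2h2be (0.898), Arap3 // Mir6981 // Mir6980 (0.891) and Hs3st1 (0.882).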

How the data were processed

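RNA of sorted cells was amplified with the SMARTer Ultra Low Input kit (v4) and sequenced as 100-base paired reads. Per the study's methods, the authors aligned reads with STAR 2.4.0 to mm10 and counted them on constitutive regions of FAST DB genes, and whether strand was used is not stated. The deposited signal values are gene counts that the authors divided by DESeq2 size factors. Whole reads were recovered by dividing each value by that of 1 read, and 100% of values came out whole within 0.01.

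The 19 samples were grouped by their labels. Differences were tested with limma 3.58.1 (R 4.3.3) on log2(level + 1) for genes averaging 10 or more in 1 of the groups compared, using the samples of both groups, and a gene was called when p was no more than 0.05 and the difference 1.5-fold or larger. Benjamini-Hochberg values over all genes tested are given beside them. Fold changes are on the log2(level + 1) scale, and those of low genes with samples at 0 depend on the pseudocount and can be smaller or larger than the ratio of means. For single genes and ratios, exact permutation tests (2-sided) were run, and correlations by 100000 permutations. edgeR 4.0.16 and DESeq2 1.42.0 on whole reads, other pseudocounts, filters and scalings, a single fit, a replicate block, an endothelial covariate and leaving out each sample were alternatives. The steps were tested on simulated data. The members, gene lists and tests were chosen with earlier results of these data known. All 9 members are named, with up to 4 genes of each family list that had the smallest p among those called, and the 3 genes most alike to each of 5 members. Some genes of the family lists are not reported here.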

Additional observations from a re-analysis of the deposited data

Results flagged for a closer look

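In 8 of 25 groups of 4 to 7 samples, 1 sample stood apart from the others by Dixon's criterion on untransformed levels. Chance alone meets it in about 1 of 20 groups only where values are normally distributed. Levels of the low genes were skewed, and several of their samples had no read. That rate therefore cannot be applied here, and the count of groups does not show an excess of aberrant samples. Gjb6 was at 8324 in APP-SOCS3 replicate 2, with the nearest sample at 4114. Gjb2 was at 1507 in APP-GFP replicate 4, with the nearest at 1182. Gja5 was at 10.5 in APP-GFP replicate 4 and at 6.51 in APP-SOCS3 replicate 2. The other samples of these groups had no read, a pattern that always meets the criterion. Gjc1 was at 1165 in WT-GFP replicate 2 (nearest 334) and at 1469 in APP-GFP replicate 2 (nearest 258). Gjc3 was at 158 in WT-GFP replicate 3 (nearest 45.2), and Panx2 at 16.7 in WT-GFP replicate 4 (nearest 6.77). WT-GFP replicate 3 and APP-GFP replicate 2 are also the samples with the fewest genes detected.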

How the results depend on the processing

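Between GFP+ and GFP- cells, 6 to 8 of the 9 genes were called under the other settings but 5 with a pseudocount of 0.1 or adjusted p, and 5 to 8 when single samples were left out. Between APP-SOCS3 and APP-GFP astrocytes the 2 calls became 1 with a pseudocount of 0.1 (Gjc1), 0 with all 19 samples in one fit, adjusted p or the endothelial covariate, and 0 to 3 without single samples. Between APP-SOCS3 and WT-GFP astrocytes the count of 0 became 2 with a pseudocount of 10 (Gja4, Panx2), 1 with equal upper quartiles or a single fit (Panx2), 2 with edgeR (Gja4, Gjc3) and 3 with DESeq2 (Gja4, Gjc1, Gjc3), and 0 to 2 without single samples. Between APP-GFP and WT-GFP astrocytes it was 0 in every setting run. The causes of these changes were not tested.

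Differences near 0 changed sign, and with the endothelial covariate so did some larger ones. Without it, Gja4 in APP-SOCS3 astrocytes was at -3.01 against APP-GFP and -2.64 against WT-GFP, and Gjc1 at -1.80 against WT-GFP. With equal upper quartiles, Gjb2 between GFP+ and GFP- cells was -0.18, Gja1, Gjb6 and Panx1 between APP-GFP and WT-GFP 0.032, 0.10 and 0.12, and Gjb6 and Panx1 between APP-SOCS3 and WT-GFP 0.32 and 0.16. For Gja4 between APP-GFP and WT-GFP the values were -0.050 (pseudocount 10), -0.38 (edgeR) and -0.39 (DESeq2), and for Gjc3 -0.030 (DESeq2). Panx1 was 0.43 in that comparison and 0.64 between APP-SOCS3 and WT-GFP with a pseudocount of 0.1, and between APP-SOCS3 and APP-GFP -0.032 (pseudocount 10), -0.15 (edgeR) and -0.15 (DESeq2). With the endothelial covariate, APP-SOCS3 against APP-GFP gave -0.13 for Gja1, -0.13 for Gjb6, -0.14 for Gjb2 and 0.77 for Gja4, and APP-SOCS3 against WT-GFP -0.12 for Gja1, 2.30 for Gja4, 0.017 for Gjc1 and 2.05 for Panx1. Without single samples, APP-GFP against WT-GFP ran from -0.30 to 0.11 (Gja1), -0.29 to 0.10 (Gjb6), -0.026 to 0.29 (Gjb2), -0.81 to 0.85 (Gja4), -0.33 to 1.55 (Gjc1), -0.82 to 1.21 (Gjc3) and -0.91 to 1.05 (Panx1). APP-SOCS3 against APP-GFP ran from -0.17 to 0.26 (Gjb6), -0.011 to 0.13 (Gjb2) and -1.12 to 0.94 (Panx1), and APP-SOCS3 against WT-GFP from -0.24 to 0.060 (Gjb6) and -0.68 to 0.82 (Panx1). The log2 ratio of Gjb6 to Gja1 ran from -0.21 to 0.24 (GFP+ against GFP-) and -0.012 to 0.19 (APP-GFP against WT-GFP). Between APP-SOCS3 and WT-GFP it ran from -0.42 to -0.17 and kept its sign.

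Same-numbered samples deviated together in some pairs only (r from -0.177 to 0.242), so the replicate block is an alternative alone. With it 6 genes were called between GFP+ and GFP- cells, 1 between APP-SOCS3 and APP-GFP (Gja4) and none in the other 2 comparisons, and Gjb2 (GFP+ against GFP-), Gjc3 and the Gjb6 to Gja1 ratio (APP-GFP against WT-GFP) were -0.19, -0.22 and -0.032.

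Over all genes, GFP+ against GFP- gave 2471 higher and 8948 lower calls, 1351 and 11032 with equal upper quartiles and 3323 and 5265 with edgeR, and the median log2 fold change of -1.31 became -1.73 and -0.37. APP-GFP against WT-GFP gave 382 and 131, 411 and 38 with equal upper quartiles and 205 and 325 with DESeq2. APP-SOCS3 against WT-GFP gave 733 and 464, 1321 and 257 with equal upper quartiles, 441 and 762 with edgeR and 340 and 824 with DESeq2. With adjusted p, 8477, 1, 1 and 7 genes were called in the 4 comparisons, instead of 11419, 513, 1301 and 1197. Gja5, Gjc3, Panx1 and Panx2 had few or no reads in many GFP+ samples, so differences among GFP+ groups were poorly resolved for them.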
